A study of Macaca mulatta with 20 samples.

Results

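The late and the early corpus luteum of the rhesus macaque (Macaca mulatta) were compared. The 8 arrays used for this were 4 of the late and 4 of the early stage, out of 20 arrays in the series, and were chosen by the stage in their titles and not by any measured value. Each array held total RNA of 1 whole corpus luteum of a female with normal menstrual cycles, taken by surgery in a natural cycle and frozen at once, with no agent, hormone treatment or transgene named in the labels. Days were counted from the midcycle surge of luteinizing hormone, which was placed by the fall of serum estradiol. Early corpora lutea came from days 3 to 5, when the ovulated follicle is being turned into luteal tissue. Late ones came from days 14 to 16, during functional regression, when per the labels progesterone secretion has ended or is about to end but the tissue has not begun to degenerate. The series also holds 4 arrays each of the mid (days 7 to 8), mid-late (days 10 to 12) and very-late stage (days 18 to 19). The replicates are biological per the series' design, and each stage spans several days.

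The corpus luteum forms from the granulosa and theca cells of the follicle, which stop dividing as they luteinize, while blood vessels grow in to supply them. Its steroid cells take up cholesterol, cut it to pregnenolone in the mitochondrion and turn that into progesterone, and in primates they also make estrogens, inhibin and relaxin. Without a pregnancy the gland first stops secreting progesterone and later breaks down, and immune cells enter it. The early and late stages thus lie on either side of full function, and the comparison asks what sets these glands apart.

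Values are those deposited by the authors, in log2 units of the array signal, with 1 value per probe set. In the 8 arrays they ran from 2.587 to 14.22, and 3.42, the median of probe sets for viral genomes, was taken as background. Across probe sets, 2 arrays of 1 stage correlated at 0.984 to 0.9886 (early) and 0.9864 to 0.9953 (late), and early with late arrays at 0.9692 to 0.9808. Probe sets are not independent replicates. As a check of the tissue, STAR, a defining gene of steroid cells, was at 13.03 to 13.44 in all 8. A few arrays lay apart. Early replicate 4 had a mean of 7.02 over 6 probe sets of the mitochondrial genome, where the other 7 arrays lay at 11.75 to 12.17. Late replicate 1 lay at least 2-fold below the other 3 late arrays in 85 genes and above them in 39, against 0 to 2 and 0 to 8 genes for each other late array. Each early array lay below the other 3 early ones in 10 to 30 genes and above them in 25 to 50. Against these, only the 85 genes stood out. The excess of signal at the 3' end of a transcript over its 5' end is a measure of RNA quality, and it differed between the stages. For GAPDH it was 1.33 to 1.78 in the early and 1.16 to 1.45 in the late arrays. For actin it was 0.22 to 0.52 in the early and 0.10 to 0.22 in the late arrays. The part of RNA quality in the changes below was not tested.

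Between the early and the late stage, 1737 of 14132 genes (12.3%) passed limma's test, each gene read by its probe set of highest mean. Of these 597 were higher (4.22% of genes) and 1140 lower (8.07%) in the late glands. Of the 52707 probe sets themselves, 3994 passed (7.58%), 1903 of them higher and 2091 lower. This balance depended on the setting. On the 8 arrays alone 2410 were higher and 1965 lower. Without the very-late arrays it was 2827 and 2608, and with array weights 2776 and 2657. After cyclic loess scaling it was 1926 and 2095, after median centring 1684 and 2137, and with 1 probe set per gene 719 and 1310. In the main fit the excess of lower calls lay in named genes. Among probe sets with 1 gene symbol 43.6% of the calls were higher, and among those with none 58.3%. The 4 late arrays did not overlap the 4 early ones in 2806 genes (19.9%), and lay above them in 1108 (7.84%) and below in 1698 (12.0%). A change of 2-fold or more that passed was seen in 900 probe sets (1.71%), 489 of them higher and 411 lower. With 2-fold, the test and no overlap together, 358 genes were left (2.53%), 158 higher (1.12%) and 200 lower (1.42%). When each of the 8 arrays was left out in turn, 932 genes passed every time, 299 higher and 633 lower. The fewest calls came without early replicate 3, at 2588 probe sets. Without early replicate 4 and late replicate 1 together, an alternative chosen after seeing the data, 2635 probe sets passed, and 113 of the 139 called genes named in this text still did. Among named genes that survived every omission of 1 array, ACVR1B, ALAS1, ARNTL, ASAH1, ENPP2, IGFBP4, KDR, KLRD1, LDHA, PDGFA, SLC2A1, TFPI2, TXNIP and VSX1 failed it (adjusted p = 0.0549 to 0.103). Changes below are late minus early in log2 units with the standard error of the fit, n = 4 arrays per stage. An adjusted p comes from limma with Benjamini-Hochberg adjustment over the 52707 probe sets, and "passed" means under 0.05. In RNA of a whole gland, fewer cells of a type and less RNA per cell cannot be told apart. The gene lists below were chosen with earlier results of these data known, so their counts and shares are a description.

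**Figure D1:**
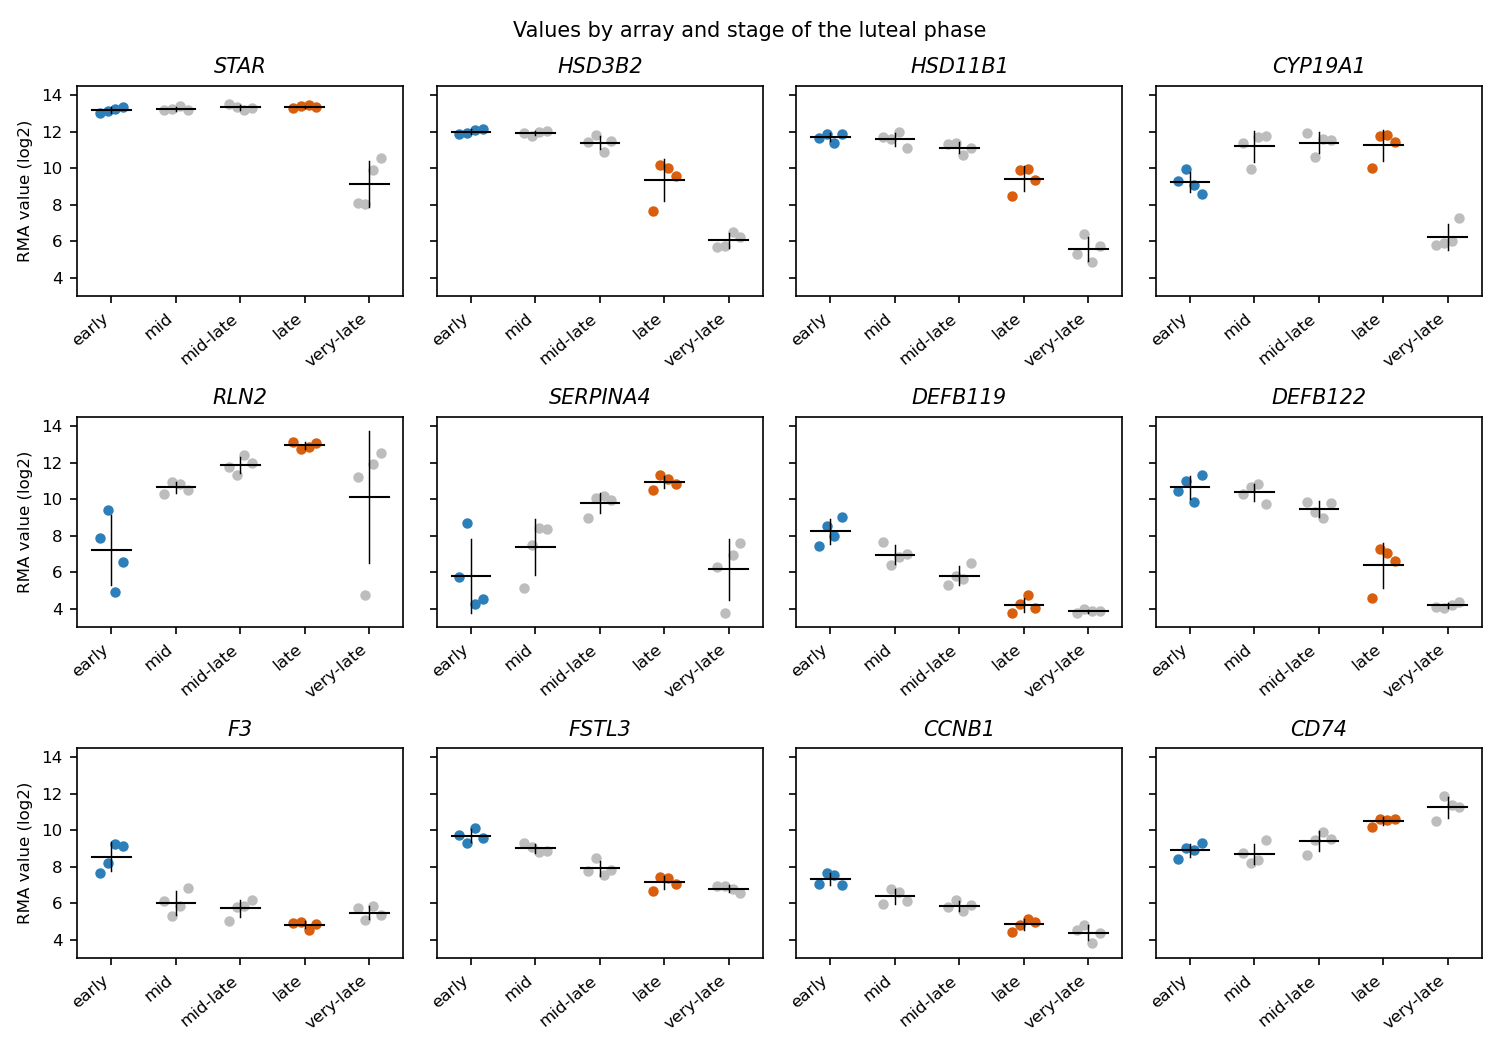
Deposited RMA values (log2, y axis) of 12 genes at the 5 stages (x axis), with 1 point per array, a bar at the mean and a line of 1 SD each way. Early arrays are blue, late ones orange and other stages grey. STAR overlapped between these stages, HSD3B2, HSD11B1, DEFB119, DEFB122, F3, FSTL3 and CCNB1 were lower in all 4 late arrays, and CYP19A1, RLN2, SERPINA4 and CD74 were higher.

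The steroid pathway was split between the stages. Of 6 genes of cholesterol delivery and cleavage 1 passed (STARD4, below), the enzyme that makes progesterone was lower at the late stage, and aromatase was higher. STAR carries cholesterol into the mitochondrion, and it was at 13.03, 13.13, 13.27 and 13.36 at the early stage and 13.30, 13.38, 13.44 and 13.34 at the late stage. Its change of 0.17 ± 0.38 has a 95% interval of -0.62 to 0.96. That width includes the spread of the very-late arrays, at 8.05 to 10.55, and is not the spread of the early and late arrays. FDX1, the ferredoxin that feeds electrons to side-chain cleavage, lay at 12.06 to 12.41 in all 8 arrays, with a change of -0.02 ± 0.15 and an interval of -0.33 to 0.29. HSD3B2 makes progesterone from pregnenolone. It was at 11.85, 11.93, 12.09 and 12.13 at the early stage and 7.67, 10.16, 9.98 and 9.57 at the late stage. No late array reached any early one, late replicate 1 was the lowest, and HSD3B2 fell by 2.65 ± 0.37 (adjusted p = 0.000324). HSD11B1 interconverts cortisone and cortisol and was at 11.65, 11.89, 11.40 and 11.87 at the early stage and 8.47, 9.90, 9.97 and 9.38 at the late stage. It fell by 2.27 ± 0.32 (adjusted p = 0.000293), again with late replicate 1 lowest. Without early replicate 4 and late replicate 1 together HSD3B2 changed by -2.05. CYB5A, a cytochrome b5 that assists steroid lyase and hydroxylase reactions, fell by 0.93 ± 0.16 (adjusted p = 0.00138).

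CYP19A1, the aromatase that makes estrogens, went the other way. It was at 9.28, 9.94, 9.10 and 8.60 at the early stage and 10.03, 11.74, 11.85 and 11.44 at the late stage. The lowest late array, again replicate 1, lay just above the highest early array, replicate 2, and CYP19A1 rose by 2.03 ± 0.47 (adjusted p = 0.0110). CYP17A1, which makes the androgens that aromatase uses, was at 7.74, 7.94, 6.22 and 6.43 at the early stage and 7.85, 7.91, 8.34 and 7.98 at the late stage. Its groups overlapped and it did not pass (0.94 ± 0.66, adjusted p = 0.510). CYP11A1, LHCGR, SCARB1, PTGFR and VEGFA were not analysed here. STARD4, a soluble carrier of cholesterol, rose by 0.71 ± 0.16 (adjusted p = 0.0120). Of the 6 nuclear receptors of steroid cells only NR5A1 passed. It fell by 0.52 ± 0.15 (adjusted p = 0.0368) and failed without early replicate 3 or 4 or late replicate 1, 2, 3 or 4 (adjusted p up to 0.131). In the 24 measured genes of the steroid list, 2 were higher and 5 lower (29.2% called, against 12.3% of all genes), with 3 lower without early replicate 3 or 4 or late replicate 2, and the median change was -0.03 against -0.02 over all genes.

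Genes of cholesterol handling changed in both directions. Of 13 enzymes of cholesterol synthesis 0 were higher and 2 lower, a share of 15.4%, near the 12.3% of all genes. PMVK, a kinase of the mevalonate pathway, fell by 0.76 ± 0.14 (adjusted p = 0.00331), from 6.95, 7.25, 7.08 and 7.56 at the early stage to 6.44, 6.47, 6.48 and 6.42 at the late stage. SQLE, the epoxidase that commits squalene to sterols, fell by 1.12 ± 0.28 (adjusted p = 0.0199), with overlapping arrays, and failed without early replicate 3 or 4 or late replicate 1 or 4 (adjusted p up to 0.0743). Of 18 genes of uptake, storage and efflux 4 were higher and 3 lower (38.9%, against 12.3% of all genes). These became 3 and 2 without early replicate 3 or 4 or late replicate 3 or 4. The difference between the lists was not tested. APOE, an apolipoprotein that carries cholesterol out of cells, was at 11.40, 11.89, 11.71 and 11.59 at the early stage and 12.69, 12.66, 12.71 and 12.67 at the late stage. All late arrays were above all early ones, and APOE rose by 1.04 ± 0.13 (adjusted p = 0.000137). MYLIP marks lipoprotein receptors for breakdown and rose by 1.07 ± 0.15 (adjusted p = 0.000372). NPC2, which moves cholesterol out of the lysosome, rose by 0.75 ± 0.14 (adjusted p = 0.00316). LPCAT3, an acyltransferase of phospholipids, fell by 1.20 ± 0.20 (adjusted p = 0.00125), and PNPLA2, the triglyceride lipase of lipid droplets, fell by 0.69 ± 0.12 (adjusted p = 0.00142).

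Hormone receptors and second messengers gave 7 calls among 37 genes (18.9%), 4 higher and 3 lower. These became 3 higher and 0 lower without late replicate 3, 3 and 1 without early replicate 3 or late replicate 1 or 4, and 4 and 1 without early replicate 1, shares near or below the 12.3% of all genes. HTR2B, a serotonin receptor, was close to background at the early stage and clearly above it at the late stage. It was at 4.12, 3.97, 3.56 and 3.98 at the early stage and 7.96, 6.98, 6.92 and 6.96 at the late stage. Late replicate 1 was the highest here, and HTR2B rose by 3.30 ± 0.48 (adjusted p = 0.000401). ADIPOR2, an adiponectin receptor, rose by 0.78 ± 0.13 (adjusted p = 0.000910), and PDE7B, which breaks down cAMP, rose by 1.31 ± 0.24 (adjusted p = 0.00234). PRLR, the prolactin receptor, had late values of 6.59, 6.67, 6.78 and 6.66 above early ones of 5.84, 6.26, 5.29 and 6.42. It did not pass (0.72 ± 0.33, adjusted p = 0.233), but did without the very-late arrays. RGS2, which damps G-protein signals, fell by 1.62 ± 0.40 (adjusted p = 0.0186) and failed without early replicate 4 or late replicate 1 or 3 (adjusted p up to 0.0656). PGR, the progesterone receptor, fell by 0.47 ± 0.13 (adjusted p = 0.0362) from an early mean of 3.77 to a late mean of 3.30, below background, and failed without early replicate 1, 3 or 4 or late replicate 1, 3 or 4 (adjusted p up to 0.107).

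In the activin and TGF-beta system 2 of 34 genes were higher and 2 lower (11.8% called, near the 12.3% of all genes). Of 9 binding proteins 1 was higher and 2 lower, and of 14 receptors and SMADs 1 was higher. Of 11 ligands 0 passed limma's test. The difference between these roles was not tested, and 1 binding protein was lower without early replicate 3 or 4 or late replicate 2. INHA, the inhibin alpha chain, was at 11.52, 11.83, 11.91 and 11.63 at the early stage and 11.89, 11.89, 12.08 and 11.98 at the late stage with overlapping groups (0.24 ± 0.50, adjusted p = 0.881). FSTL3 binds and blocks activin. It was at 9.76, 9.32, 10.14 and 9.59 at the early stage and 6.65, 7.45, 7.38 and 7.08 at the late stage. The gap between the groups was wide, and FSTL3 fell by 2.56 ± 0.21 (adjusted p = 5.29e-06). Follistatin, FST, the other activin-binding protein, fell by 1.47 ± 0.36 (adjusted p = 0.0162) and failed without early replicate 3 or 4 or late replicate 2 (adjusted p up to 0.0609). LTBP1 holds TGF-beta in the matrix and rose by 2.02 ± 0.45 (adjusted p = 0.00873). ACVR1B, a type I activin receptor, rose by 0.61 ± 0.14 (adjusted p = 0.0123), with 1 early array among the late values, and failed on the 8 arrays alone (adjusted p = 0.0685). Counting unadjusted p under 0.05, 1 of the 11 ligands had one.

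The largest rises of the comparison were in 2 secreted products. RLN2, the hormone relaxin, was at 7.88, 9.44, 4.94 and 6.57 at the early stage and 13.14, 12.75, 12.86 and 13.08 at the late stage. The late arrays spanned 0.40 while the early ones spread widely, and RLN2 rose by 5.75 ± 1.20 (adjusted p = 0.00606). Leaving out early replicate 2 gave 6.49 and leaving out early replicate 3 gave 5.00, and a term for mitochondrial signal gave 5.07. SERPINA4, the protease inhibitor kallistatin, was at 5.75, 8.69, 4.29 and 4.51 at the early stage and 10.50, 11.31, 11.12 and 10.85 at the late stage. It rose by 5.14 ± 0.91 (adjusted p = 0.00182), or by 6.10 without early replicate 2, the highest early array, and by 2.57 with its probe sets averaged. The beta-defensins DEFB119 and DEFB122, small peptides known in the reproductive tract, moved the other way. DEFB119 was at 7.45, 8.55, 7.99 and 8.999 at the early stage and 3.79, 4.27, 4.73 and 4.02 at the late stage. Its late values lay near background, and DEFB119 fell by 4.04 ± 0.32 (adjusted p = 5.29e-06). DEFB122 was at 10.48, 11, 9.86 and 11.31 at the early stage and 4.59, 7.25, 7.03 and 6.63 at the late stage. Without late replicate 1, the lowest, its change was -3.69 in place of -4.29 ± 0.44 (adjusted p = 2.44e-05), and with its probe sets averaged it was -1.64.

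Of 17 genes known from ovulation, 6 were lower and 0 higher at the late stage (35.3%, against 8.07% lower over all genes), and 5 of the 17 had a change above 0. F3, the tissue factor that starts clotting, was at 7.64, 8.20, 9.26 and 9.13 at the early stage and 4.91, 4.95, 4.56 and 4.87 at the late stage. Late arrays were all near 5 and early ones between 7.64 and 9.26, so F3 fell by 3.73 ± 0.35 (adjusted p = 1.48e-05). TFPI2, an inhibitor of the tissue factor pathway and of plasmin, fell by 2.52 ± 0.56 (adjusted p = 0.00942), from 7.85, 6.81, 9.06 and 8.66 at the early stage to 5.52, 5.69, 5.55 and 5.53 at the late stage. PTX3, a pentraxin of the matrix around the oocyte, was at 5.52, 6.08, 5.51 and 8.14 at the early stage and 3.27, 3.93, 3.75 and 3.76 at the late stage. Early replicate 4 stood out, and the change of -2.63 ± 0.45 (adjusted p = 0.00143) was -2.02 without it. PLAUR, the urokinase receptor, fell by 1.63 ± 0.41 (adjusted p = 0.0187) and failed without early replicate 4 or late replicate 3 (adjusted p up to 0.0565). VCAN, a proteoglycan of the expanding cumulus, fell by 1.19 ± 0.30 (adjusted p = 0.0199) and failed without early replicate 1 or 2 or late replicate 1 (adjusted p up to 0.0678). The list had 4 to 6 lower members when 1 array was left out, and the 4 came without early replicate 1, 2 or 4. Without early replicate 4 and late replicate 1 together 3 were lower. With its probe sets averaged TFPI2 changed by -1.24.

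Genes of cell division were lower at the late stage. Of 65 measured, 37 were lower and 1 higher (58.5% called, against 12.3% of all genes), with a median of -0.52. Genes of mitosis and the spindle led, with 21 of 26 lower (80.8% called) and a median of -0.97. The late arrays lay below all early ones in 21 of the 26, against 12.0% of all genes. CCNB1, the cyclin that starts mitosis, was at 7.08, 7.68, 7.53 and 7.02 at the early stage and 4.45, 4.83, 5.13 and 5.00 at the late stage. It fell by 2.48 ± 0.23 (adjusted p = 1.44e-05). CDK1, its kinase, fell by 1.52 ± 0.28 (adjusted p = 0.00278), and CCNB2, a second mitotic cyclin, fell by 1.74 ± 0.24 (adjusted p = 0.000255). NCAPG, a condensin subunit that packs chromosomes, was at 6.31, 6.50, 6.29 and 6.09 at the early stage and 3.69, 4.25, 4.76 and 4.32 at the late stage. It fell by 2.04 ± 0.22 (adjusted p = 3.24e-05). KIF2C, a motor that removes tubulin at kinetochores, fell by 1.75 ± 0.17 (adjusted p = 2.25e-05). TOP2A, which untangles DNA, fell by 1.70 ± 0.28, the proliferation marker MKI67 fell by 1.38 ± 0.26 and FOXM1, a factor that drives mitotic genes, fell by 1.13 ± 0.16.

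Replication followed with 13 of 22 lower, at a median of -0.51. UHRF1, which copies DNA methylation to new strands, fell by 1.57 ± 0.23 (adjusted p = 0.000384), from 4.82, 5.59, 5.91 and 6.05 at the early stage to 3.62, 4.12, 4.25 and 4.10 at the late stage. TYMS, which makes thymidylate, fell by 1.36 ± 0.22 (adjusted p = 0.000864), and RRM1, a subunit of the enzyme that makes deoxynucleotides, fell by 0.93 ± 0.14 (adjusted p = 0.000516). Of the helicase that opens DNA, MCM3 fell by 1.12 ± 0.19, MCM4 fell by 0.91 ± 0.15 and MCM5 fell by 0.51 ± 0.12. PCNA, the sliding clamp, fell by 0.52 ± 0.13 (adjusted p = 0.0222) and failed without early replicate 2 or 3 or late replicate 1 or 2 (adjusted p up to 0.0743). The inhibitors and G1 cyclins split, with 1 of 17 higher and 3 lower. CDKN2C, an inhibitor of the G1 kinases, fell by 0.70 ± 0.10 (adjusted p = 0.000389). Its relative CDKN2A rose by 1.37 ± 0.33 (adjusted p = 0.0139), from 5.33, 4.34, 4.12 and 4.47 at the early stage to 5.72, 5.35, 6.13 and 6.55 at the late stage, and failed without early replicate 3 or late replicate 4 (adjusted p up to 0.0547). CDKN1A and CDKN1B, other kinase inhibitors, did not pass (-0.36 ± 0.18, adjusted p = 0.291, and 0.08 ± 0.17, adjusted p = 0.890). When 1 array was left out, 20 to 21 mitosis genes and 10 to 13 replication genes stayed lower in number. With probe sets averaged the changes were smaller, at -1.88 for CCNB1, -0.98 for KIF2C, -0.60 for MKI67 and 0.47 for CDKN2A.

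**Figure D2:**
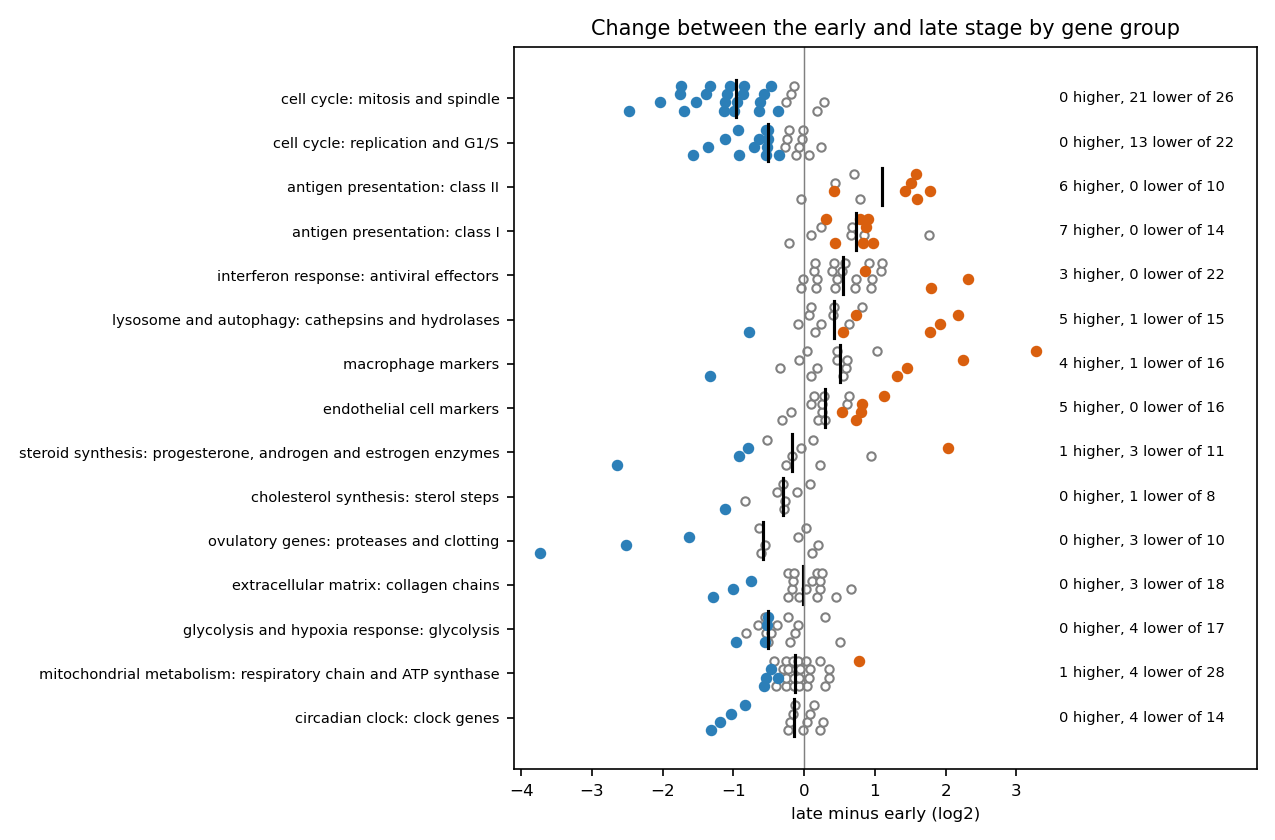
Late minus early change (log2, x axis) of each measured gene of 15 gene groups (y axis). Filled points passed limma's test (orange higher, blue lower), open points did not, and the black bar is the group's median. Mitosis and replication genes lie left of 0, and antigen presentation genes right of it, while steroid enzymes, collagens and the respiratory chain spread on both sides.

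Genes of antigen presentation were often higher at the late stage. Of 24 genes 13 were higher (54.2%) and 0 lower, against 4.22% higher over all genes. In class II, by which phagocytes show peptides to helper T cells, 6 of 10 were higher, at a median of 1.11. CD74, the invariant chain, was at 8.41, 9.002, 8.91 and 9.28 at the early stage and 10.15, 10.62, 10.57 and 10.60 at the late stage. It rose by 1.58 ± 0.31 (adjusted p = 0.00377). MAMU-DMA, which loads peptides on class II, rose by 1.42 ± 0.33 (adjusted p = 0.0112), from 6.42, 7.69, 7.12 and 7.21 at the early stage to 7.83, 8.62, 8.70 and 8.97 at the late stage. CTSS, the protease that trims the invariant chain, rose by 1.78 ± 0.37 (adjusted p = 0.00621). MAMU-DRA rose by 1.51 ± 0.37 (adjusted p = 0.0174) and failed without early replicate 3 or late replicate 4 (adjusted p up to 0.0515). In class I, which all nucleated cells carry, 7 of 14 were higher, at a median of 0.73. B2M, the light chain, was at 12.73, 12.89, 12.68 and 12.94 at the early stage and 13.18, 13.31, 13.20 and 13.32 at the late stage. It rose by 0.44 ± 0.07 (adjusted p = 0.00116). The heavy chains MAMU-A and MAMU-B rose by 0.84 ± 0.19 (adjusted p = 0.0117) and by 0.90 ± 0.19 (adjusted p = 0.00652), and ERAP1, which trims peptides, rose by 0.87 ± 0.16 (adjusted p = 0.00304). When all probe sets of a gene were averaged neither heavy chain passed (adjusted p = 0.102 and 0.106), and the change of MAMU-B was 0.29. Macaque histocompatibility genes are many and alike, so a probe set may read several of them. The count of 13 was 7 to 14 when 1 array was left out, with 7 without late replicate 4, 9 without early replicate 1 or 4 or late replicate 2 or 3, and 14 without late replicate 1. Class II had 3 without late replicate 4 and 4 without early replicate 1, and class I had 4 without early replicate 4 or late replicate 2, 3 or 4.

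Markers of macrophages moved in part with these genes. Of 16 measured, 4 were higher and 1 lower (31.2% called, against 12.3% of all genes), with a median of 0.51. Without early replicate 2 or 3 or late replicate 2, 3 or 4, 2 were higher. Changes of the 16 ran from -1.33 to 3.28, with 13 above 0 and 3 below. The summed signal of these markers was 11.265 to 11.692 at the early and 12.089 to 12.856 at the late stage. Values were summed on the linear scale, so bright genes weigh most and the sum need not stand for all markers. CHIT1, a chitinase of activated macrophages, was at 6.04, 5.65, 5.26 and 5.36 at the early stage and 9.61, 8.38, 8.21 and 9.23 at the late stage. It rose by 3.28 ± 0.56 (adjusted p = 0.00153). LYZ, lysozyme, was at 8.41, 8.06, 8.27 and 7.74 at the early stage and 9.16, 10.68, 10.53 and 11.10 at the late stage. It rose by 2.25 ± 0.46 (adjusted p = 0.00548), with late replicate 1 the lowest late array. CD68, a lysosomal marker of macrophages, was higher in all 4 late arrays, at 7.81, 8.20, 8.24 and 8.55 against 7.64, 7.60, 7.48 and 7.63. It did not pass (0.61 ± 0.27, adjusted p = 0.220), but did on the 8 arrays alone. CSF1R and CD14, surface receptors of the same cells, overlapped between stages and did not pass (0.55 ± 0.28, adjusted p = 0.317, and 0.46 ± 0.35, adjusted p = 0.550). Markers of neutrophils and mast cells had a summed signal of 7.299 to 8.151 at the early and 8.125 to 9.250 at the late stage, with overlap, and 0 of 11 passed limma's test (1 at an unadjusted p under 0.05). Their part in these genes was not tested. B cell markers lay close to background, with 2 of 7 below it at both stages, so a change could hardly have been read from them. Of 15 T and NK cell markers only KLRD1, a receptor of NK cells, passed, and it fell by 0.58 ± 0.12 (adjusted p = 0.00684), or by 0.06 with its probe sets averaged, which did not pass (adjusted p = 0.507). The part of cell number in the antigen presentation genes was not tested.

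Lysosomal enzymes were higher in 5 of 15 genes and lower in 1 (40% called, against 12.3% of all genes). CTSZ, a carboxypeptidase, was at 5.33, 6.12, 6.41 and 5.72 at the early stage and 7.34, 8.09, 8.39 and 8.47 at the late stage. It rose by 2.18 ± 0.34 (adjusted p = 0.000820). CTSK, a cathepsin that cuts collagen, was at 8.73, 7.67, 6.97 and 7.77 at the early stage and 9.09, 9.29, 9.48 and 10.94 at the late stage. It rose by 1.91 ± 0.40 (adjusted p = 0.00612). CTSH rose by 0.73 ± 0.17 (adjusted p = 0.0105; 0.0524 without the arrays of low mitochondrial signal), with overlapping arrays, and the ceramidase ASAH1 rose by 0.55 ± 0.12 (adjusted p = 0.00888). GAA, which breaks down glycogen, was the one that fell, by 0.78 ± 0.14 (adjusted p = 0.00266). Interferon-response genes were mostly above 0, at a median of 0.46 over 28. Of these 3 passed (10.7%, near the 12.3% of all genes), or 2 to 4 with 1 array left out, and 7 on the 8 arrays alone. BST2, which tethers budding virus, rose by 0.86 ± 0.19 (adjusted p = 0.00715), and SAMD9L, an antiviral effector, rose by 1.79 ± 0.40 (adjusted p = 0.00916), or by 2.47 without early replicate 4 and late replicate 1 together and 0.86 with its probe sets averaged. GBP1, described below, passed as well (2.32, adjusted p = 0.0354), while the well known member MX1 did not. MX1 was at 6.25, 8.15, 7.37 and 8.48 at the early stage and 7.53, 7.90, 8.38 and 8.15 at the late stage (0.43 ± 0.80, adjusted p = 0.862), with early replicate 1 the lowest of all. Among complement genes 1 of 12 components passed, and all 12 had a change above 0. That count was 0 or 1 with 1 array left out, 6 on the 8 arrays alone and 3 on arrays of high mitochondrial signal. CD55, which protects cells from complement, fell by 1.56 ± 0.28 (adjusted p = 0.00193), from 8.49, 8.03, 7.83 and 9.45 at the early stage to 6.79, 6.96, 7.09 and 6.73 at the late stage. ACKR1, which binds chemokines on venules and red cells, rose by 2.04 ± 0.38 (adjusted p = 0.00276). With probe sets averaged CD55 changed by -0.89 and ACKR1 by 1.00.

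Some vessel genes were higher at the late stage. Of 16 endothelial markers 5 were higher and 0 lower (31.2% called, against 12.3% of all genes), with a median of 0.29. Their summed signal, in which bright genes again weigh most, was 11.746 to 11.971 at the early and 12.118 to 12.348 at the late stage. KDR, which receives the signal of vascular endothelial growth factor, was at 4.16, 4.02, 4.44 and 3.79 at the early stage and 5.15, 5.40, 5.51 and 4.88 at the late stage. It rose by 1.13 ± 0.25 (adjusted p = 0.00940). TEK, the receptor of angiopoietins, rose by 0.73 ± 0.18 (adjusted p = 0.0176) and failed without early replicate 2 or 4 or late replicate 4 (adjusted p up to 0.0661). The classical markers PECAM1, CDH5 and VWF did not pass, at 0.10 ± 0.15, 0.14 ± 0.18 and 0.30 ± 0.25 (adjusted p = 0.814, 0.770 and 0.617). The count of 5 was 1 to 4 when 1 array was left out, with 1 without late replicate 4, 3 without early replicate 2 or 4 or late replicate 1, and 0 without early replicate 4 and late replicate 1 together. PDGFA, a ligand that draws pericytes, fell by 1.30 ± 0.30 (adjusted p = 0.0106), with overlapping arrays, and failed on the 8 arrays alone (adjusted p = 0.0750). Pericyte markers gave 0 calls among 8 in limma, and 2 at an unadjusted p under 0.05. Of 34 WNT genes 3 passed (8.82%, below the 12.3% of all genes). FZD6, a receptor, rose by 1.78 ± 0.40 (adjusted p = 0.0102) and TCF7, a nuclear effector, fell by 0.61 ± 0.08 (adjusted p = 0.000121). MYC changed by -0.92 (adjusted p = 0.048) and failed without early replicate 3 or 4 or late replicate 1, 2, 3 or 4 (adjusted p up to 0.163). It also failed on the 8 arrays alone.

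Matrix genes changed in both directions, 8 higher and 8 lower of 65 (24.6% called, against 12.3% of all genes), at a median of 0.03. Of 18 collagen chains 3 were lower and 0 higher, with 1 lower without early replicate 1 or late replicate 2. COL5A3, a chain of collagen V, was at 8.21, 7.85, 7.75 and 7.86 at the early stage and 6.77, 6.54, 6.60 and 6.61 at the late stage. It fell by 1.29 ± 0.13 (adjusted p = 2.27e-05). The abundant COL1A1 did not pass and COL3A1 did not either (-0.22 ± 0.24, adjusted p = 0.716, and 0.66 ± 0.26, adjusted p = 0.150). On the 8 arrays alone COL3A1 did pass. MMP9, a gelatinase of leukocytes, was at 6.50, 7.15, 6.59 and 7.13 at the early stage and 7.75, 9.20, 9.54 and 10.29 at the late stage. It rose by 2.35 ± 0.43 (adjusted p = 0.00252). FBLN5, an elastic fibre protein, rose by 1.25 ± 0.21 (adjusted p = 0.00143). Enzymes that modify collagen diverged. PLOD2, a lysyl hydroxylase, rose by 1.05 ± 0.23 (adjusted p = 0.00764) while P4HA2, a prolyl hydroxylase, fell by 1.02 ± 0.19 (adjusted p = 0.00283). TIMP1, the abundant inhibitor of matrix proteases, lay at 13.74 to 13.94 in all 8 arrays, with an interval of -0.16 to 0.14. Counts moved with single arrays: the 8 higher were 3 to 11 and the 8 lower 4 to 8, with 3 higher without early replicate 3 or 4, 4 without late replicate 2 or 3, 5 without late replicate 4, and 4 or 5 lower without early replicate 3 or late replicate 2 or 3. Without early replicate 4 and late replicate 1 together 5 were higher and 3 lower.

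Fuel use and redox genes gave scattered calls. Of 17 glycolysis genes 4 were lower and 0 higher (23.5% called, against 12.3% of all genes), at a median of -0.51. LDHA, which makes lactate, fell by 0.96 ± 0.22 (adjusted p = 0.0117), and SLC2A1, a glucose transporter, fell by 0.51 ± 0.11 (adjusted p = 0.00808), the latter not with its probe sets averaged (adjusted p = 0.0997). The 4 became 2 to 6 when 1 array was left out, with 2 without early replicate 3 or late replicate 2, 6 without early replicate 1, and 0 without early replicate 4 and late replicate 1 together. ETFB, which passes electrons from fat oxidation, fell by 0.75 ± 0.09 (adjusted p = 0.000136), while ECHDC2, of the enoyl-CoA hydratase family, was at 5.72, 6.32, 5.98 and 5.39 at the early stage and 9.47, 8.86, 9.15 and 9.13 at the late stage. It rose by 3.30 ± 0.47 (adjusted p = 0.000375), one of the widest gaps between groups. CRYZ, a quinone reductase, was at 4.52, 5.23, 4.26 and 4.07 at the early stage and 7.63, 7.77, 7.86 and 7.47 at the late stage. It rose by 3.16 ± 0.44 (adjusted p = 0.000293). GSTA1, a glutathione transferase of steroid tissue, fell by 1.75 ± 0.35 (adjusted p = 0.00470), MT2A, a metal-binding protein, fell by 1.76 ± 0.31 (adjusted p = 0.00176), and TXNIP, which binds thioredoxin, rose by 1.41 ± 0.33 (adjusted p = 0.0116), or by 2.09 with its probe sets averaged. Of the respiratory chain and ATP synthase, 1 of 28 was higher and 4 lower (17.9% called, against 12.3% of all genes), with 2 lower without early replicate 3 or late replicate 1 or 4. NDUFS4, of complex I, fell by 0.57 ± 0.10 (adjusted p = 0.00222). Clock genes passed in 4 of 14 cases, all lower (28.6%, against 8.07% lower over all genes), with 2 lower without early replicate 4 and late replicate 1 together. ARNTL, the core activator, fell by 1.32 ± 0.30 (adjusted p = 0.00965) and RORA, which induces it, fell by 1.19 ± 0.17 (adjusted p = 0.000425).

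Regulators of growth and stress made up smaller sets. ZFP36, which promotes mRNA decay, was at 7.53, 8.01, 6.22 and 6.88 at the early stage and 8.40, 9.11, 8.96 and 8.95 at the late stage. It rose by 1.69 ± 0.32 (adjusted p = 0.00282). FOSL2, a relative of FOS, fell by 0.98 ± 0.20 (adjusted p = 0.00431), and KLF4, a zinc-finger factor, rose by 0.80 ± 0.19 (adjusted p = 0.0134). IGF2R, which clears insulin-like growth factor II, rose by 0.84 ± 0.12 (adjusted p = 0.000467) and IGFBP4, which binds these factors, fell by 0.82 ± 0.19 (adjusted p = 0.0110). The death ligand TNFSF10 rose by 1.85 ± 0.37 (adjusted p = 0.00430), or by 0.94 with its probe sets averaged. Of 16 caspase and BCL2 genes only CASP8 passed, and it failed without early replicate 1, 2 or 4 or late replicate 2 or 4 (adjusted p up to 0.0730).

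Among the largest changes outside these lists, several genes of signalling and transport were higher at the late stage. ALCAM, a cell adhesion molecule, was at 8.85, 7.74, 6.66 and 8.80 at the early stage and 10.80, 11.08, 11.49 and 11.41 at the late stage. It rose by 3.18 ± 0.61 (adjusted p = 0.00319), and 4 of its 5 probe sets were called higher. IL11RA, the interleukin 11 receptor, was at 6.70, 7.83, 6.28 and 5.71 at the early stage and 9.39, 9.31, 9.57 and 9.66 at the late stage. It rose by 2.85 ± 0.37 (adjusted p = 0.000157). KALRN, an exchange factor of small G proteins, rose by 2.52 ± 0.33 (adjusted p = 0.000190), and ENPP2, which makes lysophosphatidic acid, rose by 2.38 ± 0.55 (adjusted p = 0.0121). FGF9, a growth factor, rose by 2.31 ± 0.32 (adjusted p = 0.000287), and SLC47A1, an exporter of organic cations, rose by 2.29 ± 0.37 (adjusted p = 0.000942). ZNF385B, a zinc-finger protein, was at 4.40, 4.76, 4.42 and 4.12 at the early stage and 6.30, 6.65, 6.87 and 6.79 at the late stage. It rose by 2.23 ± 0.32 (adjusted p = 0.000347). TLCD4, a membrane protein, rose by 2.94 ± 0.46 (adjusted p = 0.000806), or by 3.56 without early replicate 2. VSX1, a homeobox factor known from the retina, was at 5.79, 7.36, 4.25 and 4.11 at the early stage and 8.35, 8.44, 8.53 and 8.45 at the late stage. The late arrays lay close together and the early ones did not, and VSX1 rose by 3.06 ± 0.70 (adjusted p = 0.0104), or by 3.73 without early replicate 2. B3GNT5, which starts a class of glycolipid chains, rose by 2.38 ± 0.65 (adjusted p = 0.0321) and failed without early replicate 3 or 4 or late replicate 2, 3 or 4 (adjusted p up to 0.120). LOC699035, a locus with no gene name in the annotation used, rose by 3.18 ± 0.58 (adjusted p = 0.00232). Other genes fell. MLPH, which links vesicles to myosin, was at 7.88, 8.19, 9.07 and 8.75 at the early stage and 4.72, 5.36, 5.02 and 4.74 at the late stage. It fell by 3.51 ± 0.36 (adjusted p = 2.27e-05). F2RL1, a receptor cut open by trypsin-like proteases, was at 9.13, 9.96, 9.69 and 10.94 at the early stage and 5.15, 7.55, 7.06 and 7.51 at the late stage. It fell by 3.11 ± 0.55 (adjusted p = 0.00198). KRT8, a keratin of granulosa and epithelial cells, fell by 2.42 ± 0.40 (adjusted p = 0.00106), and CLDN3, a tight junction protein, fell by 1.25 ± 0.29 (adjusted p = 0.0123). DAPL1 was at 6.36, 8.27, 7.83 and 8.88 at the early stage and 3.95, 4.54, 4.46 and 4.17 at the late stage. Its early arrays spread over several log2 units, and DAPL1 fell by 3.55 ± 0.60 (adjusted p = 0.00125). CRHBP binds corticotropin-releasing hormone and fell by 2.93 ± 0.58 (adjusted p = 0.00415). PI3, the elastase inhibitor elafin, was at 8.54, 6.62, 6.46 and 8.45 at the early stage and 4.37, 4.71, 4.76 and 4.94 at the late stage and fell by 2.82 ± 0.39 (adjusted p = 0.000263). IL13RA2, a receptor that binds interleukin 13, fell by 2.48 ± 0.33 (adjusted p = 0.000192), and TMPRSS7, a membrane serine protease, fell by 2.68 ± 0.41 (adjusted p = 0.000660) to late values at or below background. NANOS1, an RNA-binding protein, fell by 2.65 ± 0.46 (adjusted p = 0.00158), RASD1, a Ras-like protein induced by glucocorticoids, fell by 2.61 ± 0.66 (adjusted p = 0.0196) and failed without early replicate 4 or late replicate 3 or 4 (adjusted p up to 0.0680), and the unnamed locus LOC712957 fell by 3.28 ± 0.42 (adjusted p = 0.000144). AADAC, an esterase, had early values of 10.16, 3.44, 7.25 and 9.10 and late ones of 3.35, 3.30, 3.16 and 3.18, so its fall of 4.24 ± 0.90 (adjusted p = 0.00675) rests on early replicates 1, 3 and 4. Without early replicate 1 its change was -3.35 and without early replicate 2 -5.59, and it failed on the 8 arrays alone (adjusted p = 0.0654) and on arrays of high mitochondrial signal (adjusted p = 0.0603). Averaging the probe sets of a gene gave smaller changes, at 2.26 for ALCAM, 1.59 for IL11RA, 2.03 for TLCD4, 1.79 for VSX1, -1.96 for MLPH, -2.01 for TMPRSS7 and -1.89 for AADAC. F2RL1 changed by -2.22 without early replicate 4 and late replicate 1 together.

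The late glands differed among themselves mainly by replicate 1. It correlated with the other 3 at 0.9864 to 0.988, and those correlated with each other at 0.9936 to 0.9953. Early arrays correlated with each other at 0.984 to 0.9886, a range that holds the values of late replicate 1. No 2 of the late arrays were the same data: the closest differed by a median of 0.108. Among the 8 called genes with the largest late spread, IDO1, which breaks down tryptophan, was at 4.88, 5.09, 6.65 and 5.49 at the early stage and 5.99, 9.39, 9.28 and 9.08 at the late stage. Late replicate 1 lay inside the early range and the other 3 far above it, so the rise of 2.91 ± 0.84 (adjusted p = 0.0405) is 3.73 without it. GBP1, an interferon-induced GTPase, was at 5.10, 5.39, 6.21 and 6.83 at the early stage and 6.16, 9.03, 8.88 and 8.74 at the late stage and its change was 3.00 without late replicate 1 and 1.46 with its probe sets averaged. TLL1, a protease of procollagen, was near background in all early arrays and late replicate 1 (3.48), and at 6.15 to 6.31 in the other late arrays. AREG, an EGF-like ligand, was at 11.73, 12.07, 11.44 and 11.40 at the early stage and 7.97, 11.20, 10.66 and 10.09 at the late stage. AREG fell by 1.68 ± 0.46 (adjusted p = 0.0320), its change was -1.01 without late replicate 1, and it failed without early replicate 1, 2, 3 or 4 or late replicate 4 (adjusted p up to 0.0882). Late replicate 4 led in 3 genes that macrophages express. ACP5, an acid phosphatase, was at 6.93, 6.27, 5.82 and 5.19 at the early stage and 7.07, 8.43, 8.55 and 9.98 at the late stage. It rose by 2.46 ± 0.49 (adjusted p = 0.00415). ADAMDEC1, a metalloprotease, was at 3.61, 3.50, 4.07 and 3.60 at the early stage and 3.72, 4.96, 5.62 and 6.69 at the late stage, and MMP12, the macrophage elastase, at 3.03, 3.16, 2.94 and 2.95 at the early stage and 3.07, 3.95, 4.55 and 6.11 at the late stage. Late replicate 1 was the lowest late array in all 3. ADAMDEC1 and MMP12 rose by 1.55 ± 0.43 (adjusted p = 0.0337) and 1.40 ± 0.42 (adjusted p = 0.0479), and each failed when any array but late replicate 1 was left out. MMP12 also failed after cyclic loess scaling or median centring. Late replicate 1 was also high in FOS and NR4A1, transcription factors of the early stress response, neither of which passed. FOS was at 9.45, 6.03, 5.47 and 4.84 in the late arrays and NR4A1 at 9.33, 7.55, 7.41 and 6.06. Of genes called lower, 30% had a larger SD at the late than at the early stage, against 46% of all genes. Of genes called higher 47.07% did, near the share of all genes. IDO1 failed without early replicate 1, 2 or 4 or late replicate 2, 3 or 4 (adjusted p up to 0.122), and GBP1 without early replicate 1, 2 or 3 or late replicate 2, 3 or 4 (adjusted p up to 0.110).

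**Figure D3:**
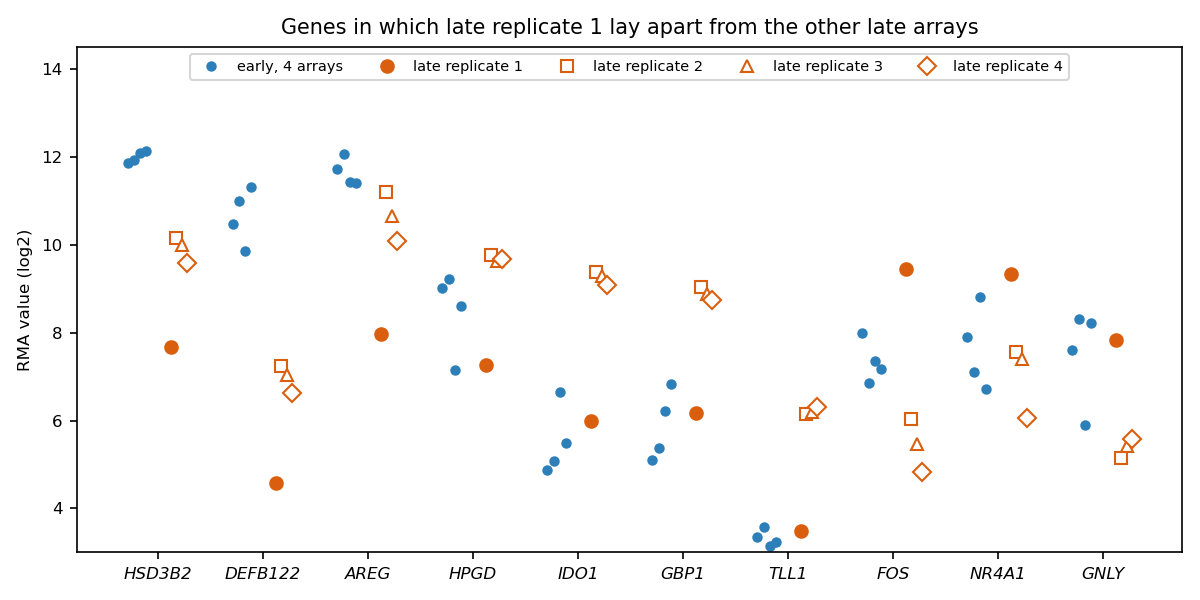
Values (log2, y axis) of 10 genes (x axis) in the 4 early arrays (blue points) and the 4 late arrays (orange, 1 symbol per replicate). The genes were chosen for the distance of late replicate 1, the filled symbol, which lay at 7.67 for HSD3B2 where the other late arrays were at 9.57 to 10.16.

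The mid and mid-late glands together were set against the early and late glands together, to ask what marks the functional gland from both sides. Only 38 genes passed (0.269%), 18 higher and 20 lower in the functional stages. NPTX2, a secreted pentraxin, was the largest rise, at stage means of 9.74, 11.72, 11.48 and 10.13 (early, mid, mid-late and late). It was higher by 1.67 ± 0.28 (adjusted p = 0.0293), and all 8 mid and mid-late arrays were above the 8 others. LYZ, MMP9 and CTSS, which macrophages express, were lower in the mean of the functional stages. At mid-late alone, however, the arrays of all 3 genes overlapped the early ones. CTSS was at 6.09 to 7.94 at mid-late and 6.77 to 7.53 at the early stage. LYZ had stage means of 8.12, 6.48, 8.18 and 10.37 (early, mid, mid-late and late) and was lower by 1.92 ± 0.33 (adjusted p = 0.0313). MMP9 had 6.84, 5.80, 6.60 and 9.20 (early, mid, mid-late and late) and was lower by 1.82 ± 0.31 (adjusted p = 0.0305). For both LYZ and MMP9 the late stage stood far above the early one, and the low point was the mid stage. LGALS3, a lectin of macrophages, and ST14, a membrane serine protease, were lower there as well, at stage means of 10.25, 9.14, 9.52 and 10.60 (early, mid, mid-late and late) and 7.26, 5.91, 5.94 and 6.87 (early, mid, mid-late and late), with differences of -1.10 ± 0.20 (adjusted p = 0.0354) and -1.14 ± 0.19 (adjusted p = 0.0305). This comparison rested on few arrays. Of 70 probe sets called, 0 were left without late replicate 4 and 1 without mid replicate 3, while 177 passed without late replicate 1. All 4 mid arrays, mid-late replicate 1 and early replicate 4 had low mitochondrial probe sets, and with a term for that split 3 passed. The part of that split was not tested.

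**Figure D4:**
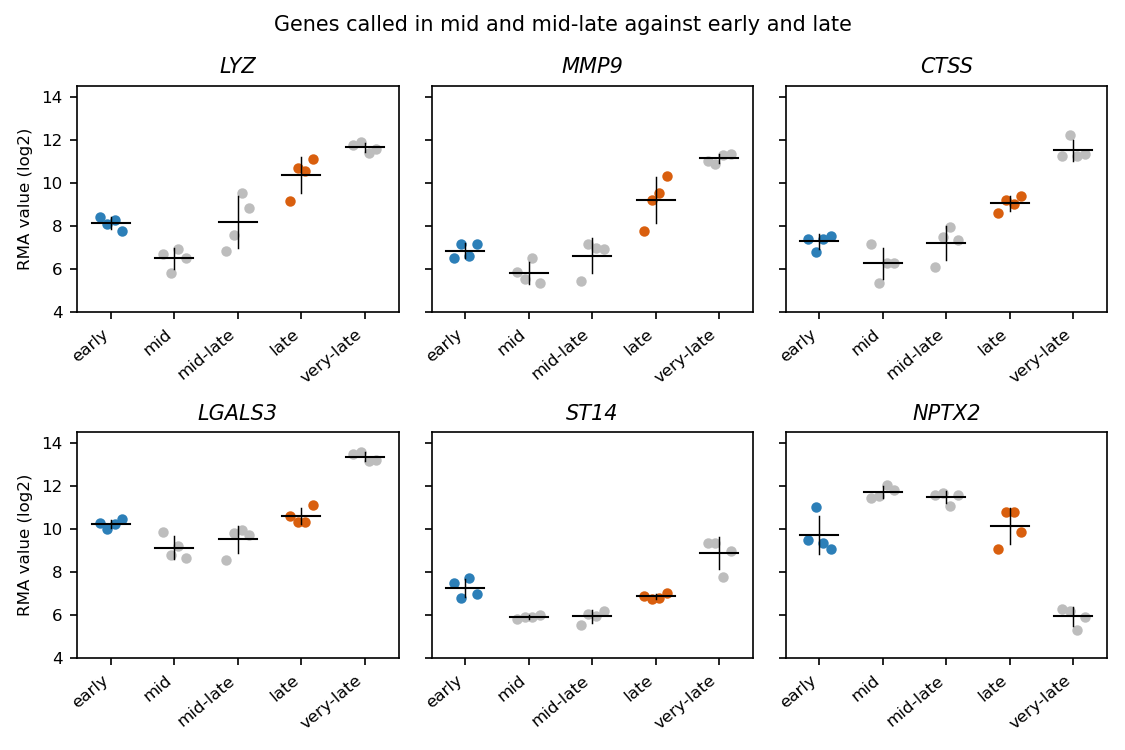
Values (log2, y axis) of 6 genes at the 5 stages (x axis), 1 point per array, with the mean and 1 SD. LYZ, MMP9 and CTSS were lowest at the mid stage and higher at the late than at the early stage, LGALS3 and ST14 were lower at mid and mid-late than at early and late in their means, and NPTX2 was higher.

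Whether a change against the early stage had grown between the mid-late and the late stage was tested directly. Of 14132 genes 1 passed (0.00708%). It was DEFB122, at 9.47 at mid-late and 6.37 at late, a change of -3.10 ± 0.44 (adjusted p = 0.0307), and it failed without mid-late replicate 1, 2, 3 or 4 or late replicate 3 or 4 (adjusted p up to 0.190). HSD3B2 (-2.05 ± 0.37, adjusted p = 0.0816) and HSD11B1 (-1.69 ± 0.32, adjusted p = 0.0816) were lower at late than at mid-late and did not pass, nor did CCNB1 (-1.01 ± 0.23, adjusted p = 0.167). RLN2 was already at 11.87 at mid-late, and its further change of 1.08 ± 1.20 did not pass (adjusted p = 0.987). Its late arrays, at 12.75 to 13.14, nonetheless all lay above the mid-late ones, at 11.32 to 12.43. The standard error came from the fit over all stages, which included early arrays at 4.94 to 9.44 and very-late replicate 2 at 4.75. The test thus could not decide whether RLN2 rose further. In all, 6 probe sets passed (0.0114%), 2 higher and 4 lower at late, and 0 to 83 did when 1 array was left out. The split was 5 and 6 after cyclic loess scaling and 2 and 2 after median centring.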

How the data were processed

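Biotin-labelled RNA made from 2 micrograms of total RNA was hybridised to Affymetrix rhesus arrays, per the labels' protocols. The authors deposited log2 values made with RMA, which corrects background, normalizes arrays to each other and summarises probes, per the submitters' processing notes. Its version is not given in the sources used here. RMA compresses changes near background.

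From these values limma 3.58.1 in R 4.3.3 fitted 1 mean per stage over all 20 arrays, without 158 array controls, and tested 3 contrasts with Benjamini-Hochberg adjustment over 52707 probe sets. An annotation table gave 24956 probe sets 1 symbol, 361 several and 27390 none. A gene was read by its probe set of highest mean over the arrays. The 42 gene lists held 1176 genes, 843 of them measured. Named were the 20 largest rises and falls with 2-fold change and no overlap, list members, 17 preset genes, the top genes of the functional contrast and 8 with the largest late spread. Members and lists were chosen with earlier results of these data known, so their counts and shares are a description. The fit was tested on simulated data. Alternatives changed scaling, filters, prior, weights, samples and probe set rules. Nothing else says that glands came from separate animals, so the spread between replicates is that of these samples.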

Additional observations from a re-analysis of the deposited data

Results flagged for a closer look

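In 161 named genes the 4 early and the 4 late arrays were each searched for 1 array far from the other 3, by the share of the group's range that its gap takes against Dixon's limit for 4 values. Of 322 groups 17 passed (5.28%), close to the 1 in 20 that chance flags. Late replicate 1 was that array in 10 of them. It was the lowest in the interferon-induced IDO1 (ratio 0.910, at 5.99 against 9.08 to 9.39) and GBP1 (ratio 0.898, at 6.16 against 8.74 to 9.03), and in the protease TLL1 (ratio 0.943, at 3.48 against 6.15 to 6.31). In genes of myeloid cells and antigen presentation it was the lowest for CD14 (ratio 0.838, at 7.86 against 8.85 to 9.05), CD74 (ratio 0.898), MAMU-DRA (ratio 0.849) and MAMU-B (ratio 0.926). It was the highest for HTR2B (ratio 0.940), the keratin KRT8 (ratio 0.883, at 5.69 against 4.38 to 4.53) and MAMU-A (ratio 0.920).

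Early replicate 1 was the highest early array in ACKR1 (ratio 0.899) and FOXM1 (ratio 0.835) and the lowest in NANOS1 (ratio 0.878). Early replicate 4 was the highest in CD14 (ratio 0.885) and the lowest in RPS10 (ratio 0.973), early replicate 3 the highest in PCK2 (ratio 0.879), and late replicate 4 the highest in LPCAT3 (ratio 0.868).

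The change of DEFB122 against the early stage differed between the late and the mid-late stage by a test of the difference itself, at -3.10 log2 units.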

How the results depend on the processing

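Between the late and early stage the main count of 3994 probe sets became 2588 to 3912 when 1 of the 8 arrays was left out, and 2635 without early replicate 4 and late replicate 1 together, which was chosen after seeing the data. It was 1748 at adjusted p under 0.01, 900 with a 2-fold minimum, 2029 with 1 probe set per gene and 2032 with the probe sets of a gene averaged; these 4 test or keep fewer features by construction. Under the other 11 alternatives it stayed within 1.5 times, at 3656 to 5435. Of 139 called genes named in the text 119 passed in all 8 fits with 1 array left out and 104 in all other alternatives, and none changed sign. Of the 22 named as not passing, 3 passed under some alternative: CD68 and COL3A1 on the 8 arrays alone and on arrays of high mitochondrial signal, and PRLR without very-late arrays.

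The functional contrast (70 probe sets) and the late against mid-late contrast (6) depended on the setting, and the cause was not tested. For the functional contrast, leaving out 1 array gave 0 to 177, dim probe sets removed 144, a trended and robust prior 112, array weights 385, adjusted p under 0.01 0, a 2-fold minimum 19, its own 4 stages 362, no very-late arrays 362, very-late replicates 1 and 2 left out 317, a term for mitochondrial signal 3 and both doubtful arrays left out 117. In the main fit of this contrast 4783 probe sets had an unadjusted p under 0.05 in limma. Arrays of high mitochondrial signal alone could not be fitted, as no mid array is among them. For late against mid-late these were 0 to 83, 5 without dim probe sets, 11 with cyclic loess, 11 with the other prior, 185 with weights, 16 with 1 probe set per gene, 1 with their mean, 1 at adjusted p under 0.01, 89 on its own stages, 36 without very-late arrays, 53 without very-late replicates 1 and 2, 3 on arrays of high mitochondrial signal and 73 without both doubtful arrays.

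With the replicate number as a block the 3 counts were 3813, 18 and 3. The numbers do not pair the glands: same-numbered arrays deviated together at r = -0.06 to 0.17. Genes near the background of 3.42 give compressed changes, and 4 arrays a stage limit the precision.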

Other observations

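Genes of protein synthesis were lower at the late stage in families picked after their values were seen, so their counts are a description. Of 62 proteins of the mitochondrial ribosome, which translates the mitochondrial genome, 28 were lower and 1 higher, at a median of -0.39 against -0.02 over all genes, of which 12.3% passed. MRPL4 was at 7.95, 8.48, 8.45 and 8.55 at the early stage and 7.16, 7.38, 7.51 and 7.28 at the late stage, and it fell by 1.02 ± 0.12 (adjusted p = 8.92e-05). MRPL52, of the same large subunit, fell by 0.90 ± 0.13 (adjusted p = 0.000399). Their count fell to 18 without late replicate 1 or late replicate 2 and 19 without early replicate 3. Of 34 proteins of the cytosolic ribosome 14 were lower and 1 higher, at a median of -0.22, and 6 to 11 were lower when 1 array was left out, with 6 without late replicate 2, 7 without late replicate 3, 8 without early replicate 3 and 9 without early replicate 1 or 4. RPS21 fell by 0.47 ± 0.07 (adjusted p = 0.000481), whereas RPS10, of the same small subunit, rose by 0.62 ± 0.13 (adjusted p = 0.00625). Of 14 cytosolic enzymes that load tRNA and their scaffolds 11 were lower, at a median of -0.62, with 5 without early replicate 3, late replicate 1 or late replicate 2, 6 without early replicate 4 and 7 without late replicate 4. Without early replicate 4 and late replicate 1 together these 3 families had 15, 5 and 4 lower. The scaffold AIMP2 fell by 0.92 ± 0.14 (adjusted p = 0.000581).

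Genes that make serine, glycine and one-carbon units were lower in 6 of 12 cases, at a median of -1.20 (-0.68 without early replicate 3), and in 4 without early replicate 4 and late replicate 1 together. PCK2, the mitochondrial carboxykinase that feeds this route, was at 6.52, 6.50, 7.49 and 6.62 at the early stage and 4.60, 4.53, 4.58 and 4.79 at the late stage. All late arrays were below all early ones, and PCK2 fell by 2.16 ± 0.30 (adjusted p = 0.000321). SHMT2, which takes a carbon from serine in the mitochondrion, fell by 1.29 ± 0.29 (adjusted p = 0.00965). Of 7 genes of heme synthesis, heme being the group that steroid cytochromes carry, ALAS1, which starts it, fell by 1.23 ± 0.28 (adjusted p = 0.0102; 0.0668 without early replicate 4 and late replicate 1 together) and ALAD, the next step, fell by 1.09 ± 0.20 (adjusted p = 0.00277). Of 7 subunits of the CCT chaperonin, which folds actin and tubulin, 4 were lower, among them CCT4, which fell by 0.56 ± 0.11 (adjusted p = 0.00330), and 2 were lower without early replicate 3 and 1 without early replicate 4 and late replicate 1 together. Of 19 RNA polymerase subunits 7 were lower, with 4 without early replicate 4 or late replicate 2 or without early replicate 4 and late replicate 1 together. POLR2I, of RNA polymerase II, fell by 0.75 ± 0.10 (adjusted p = 0.000298).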
